A study of Homo sapiens with 6 samples.

Results

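The 10 genes described here encode proteins of the nuclear lamina and the nuclear envelope: the lamins LMNA, LMNB1 and LMNB2, the lamin B receptor LBR, the LEM domain proteins EMD, LEMD3 and TMPO with their DNA-binding partner BANF1, and the SUN domain proteins SUN1 and SUN2. Their accessible chromatin was followed by ATAC-seq, in which the Tn5 transposase inserts sequencing adapters where DNA is open. A peak was assigned to a gene when its midpoint fell in the RefSeq gene body or within 1 kb of it. Peaks of all samples that overlapped were merged into regions, and 34 of 102784 regions belonged to the 10 genes. Of these, 26 had a peak in each of the 6 samples, among 50150 such shared regions in all.

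The samples were RKO cells, an established human colon cancer line. The 3 DMSO samples received the solvent, and the 3 APH samples received 0.2 µM aphidicolin, an inhibitor of the replicative DNA polymerases, for 16 h. Each sample has its own peak list, so that a peak could be present in a single sample. The study reported that RKO, unlike its other cell lines, lacked lamin A/C mRNA and protein. For this reason the LMNA locus is described here along its whole length.

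The nuclear lamina is a meshwork of intermediate filament proteins under the inner nuclear membrane. B-type lamins stay attached to the membrane through a lipid anchor, while lamins A and C, made from LMNA by alternative splicing, also occur in the nucleoplasm and are typical of differentiated cells. LBR and the LEM domain proteins tether chromatin to the envelope, and SUN proteins span the inner membrane to join the lamina to the cytoskeleton through the LINC complex.

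The cell line label was examined through peaks at the starts of marker genes, which report accessibility and not expression. Of 7 epithelial markers, EPCAM, KRT8 and CLDN3 had a start region in all 6 samples and KRT18 in 5, while CDH1, KRT19 and CLDN4 had none. Of 7 intestinal markers, CDX2 and LGR5 had a region in all 6 samples and KRT20 in 2, while CDX1, VIL1, HNF4A and MUC2 had none. Among 3 mesenchymal markers ZEB1 had a region in all 6 samples, and VIM and FN1 had none. No region was found for the blood markers PTPRC, CD3E and SPI1 or for the endothelial markers CDH5 and KDR, and PECAM1 was not examined. Of 3 fibroblast markers, COL1A1 and COL1A2 had a region in all 6 samples and DCN had none.

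Promoter sequences are shown for the genes on which the results turn: the first start and the third of LMNA, the starts of LMNB2, EMD and LEMD3, where all APH values were below all DMSO values (as at BANF1, which has no bases to print under the rule that follows), TMPO, which has a second region next to its start, and LBR, whose start had the lowest signal. They are from RefSeq, build GRCh38.p14, and give the bases before the start that lie outside annotated untranslated regions, 5′ to 3′ on the strand of the gene. Capitals mark matches, on either strand, to the CCAAT box, the GC box GGGCGG, the TATA box TATAAA, the AP-1 type motif TGANTCA, the ETS type motif CCGGAAG or the E-box CACGTG, and overlapping matches were counted separately. The stretches are chr1:156082466-156082572 (+) and chr1:156106466-156106697 (+) for LMNA, chr19:2456960-2457209 (−) for LMNB2, chrX:154379045-154379272 (+) for EMD, chr12:65169333-65169582 (+) for LEMD3, chr12:98515323-98515572 (+) for TMPO and chr1:225428926-225429071 (−) for LBR.
LMNA start 1: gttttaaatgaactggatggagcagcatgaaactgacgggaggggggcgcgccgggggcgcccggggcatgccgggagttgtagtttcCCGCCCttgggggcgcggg
LMNA start 3: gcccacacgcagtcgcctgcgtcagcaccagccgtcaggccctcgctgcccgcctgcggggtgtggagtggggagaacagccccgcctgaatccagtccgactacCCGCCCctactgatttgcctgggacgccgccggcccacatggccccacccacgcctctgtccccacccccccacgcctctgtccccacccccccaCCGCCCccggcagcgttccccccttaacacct
LMNB2: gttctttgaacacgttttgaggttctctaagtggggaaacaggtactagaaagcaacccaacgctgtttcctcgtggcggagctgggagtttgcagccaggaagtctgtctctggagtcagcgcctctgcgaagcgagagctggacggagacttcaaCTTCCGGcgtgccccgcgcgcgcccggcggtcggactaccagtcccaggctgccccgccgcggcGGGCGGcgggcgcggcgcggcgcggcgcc
EMD: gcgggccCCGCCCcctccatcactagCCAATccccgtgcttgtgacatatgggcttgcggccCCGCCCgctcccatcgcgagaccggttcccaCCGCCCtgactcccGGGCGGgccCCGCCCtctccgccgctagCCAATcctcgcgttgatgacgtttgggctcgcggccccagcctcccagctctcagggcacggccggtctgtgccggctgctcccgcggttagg
LEMD3: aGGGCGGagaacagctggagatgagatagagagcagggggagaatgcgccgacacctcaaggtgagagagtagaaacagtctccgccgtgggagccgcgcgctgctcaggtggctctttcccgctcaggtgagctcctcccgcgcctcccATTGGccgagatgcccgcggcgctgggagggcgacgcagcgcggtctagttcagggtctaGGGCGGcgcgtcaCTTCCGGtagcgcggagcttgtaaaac
TMPO: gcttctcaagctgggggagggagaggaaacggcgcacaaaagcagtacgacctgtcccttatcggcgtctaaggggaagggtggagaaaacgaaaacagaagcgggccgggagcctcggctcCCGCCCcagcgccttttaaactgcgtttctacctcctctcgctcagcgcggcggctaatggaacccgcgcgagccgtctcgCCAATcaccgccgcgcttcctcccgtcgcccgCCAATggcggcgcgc
LBR: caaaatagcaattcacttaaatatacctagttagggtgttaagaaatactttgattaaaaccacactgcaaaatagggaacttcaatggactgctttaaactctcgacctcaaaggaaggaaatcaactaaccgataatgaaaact

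The RefSeq table held 15 windows of 300 bases, 250 before and 50 after a start, for 9 of the 10 genes, all but SUN1. Windows of the same gene can overlap. GGGCGG was found in 12 of the 15 windows and in 45.0% of 35114 windows of all genes, and CCAAT in 7 of 15 against 34.6%. CCGGAAG was found in 3 windows against 10.3% of all, those of LMNB2, LEMD3 and BANF1. TGANTCA was found in 2 against 7.71%, CACGTG in 1 against 7.26% and TATAAA in 0 against 11.5%. A match describes the letters of a window and nothing more. The LBR window had the lowest G and C content of the 15, at 38.3%, while the median of all windows was 58.7%. Its 8 CpG were next to the 9 of the third SUN2 window, and the median of all windows was 14. The windows of EMD with 40 CpG, LMNB2 with 38 and the first SUN2 start with 42 had the most.

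The lists held 65865, 77194 and 64511 peaks in DMSO samples 1 to 3 and 79807, 84510 and 70121 in APH samples 1 to 3. The 10 genes had 31, 39 and 32 peaks in the DMSO samples and 36, 35 and 31 in the APH samples, with a mean of 34 in each group. The value of a peak is its signal, an average of coverage along the peak, so that it does not grow with the length of the peak. Averaged over each list, the signal was 78.3, 85.2 and 83.1 in DMSO and 69.4, 73.0 and 71.0 in APH. APH samples thus had lower mean signal over all peaks, in lists that were longer on average. The depth of the libraries is unknown, and the values show no multiplication by a factor for it.

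All 10 genes had a region at the start that was shared by all 6 samples, while 10940 of 19675 protein-coding genes (55.6%) did. These regions are open in both conditions. In DMSO the signal was highest at EMD, with 311 ± 44.7 (SD, n = 3), followed by LMNB1 (232 ± 45.4), BANF1 (225 ± 21.8), TMPO (179 ± 11.8), SUN1 (164 ± 40.6), LMNB2 (151 ± 31.0), LEMD3 (151 ± 19.2), SUN2 (115 ± 20.7), LMNA (98.4 ± 14.6) and LBR (85.5 ± 4.91). In this order the DMSO values of neighbours overlapped for each pair but BANF1 and TMPO. The order in APH was the same except that LMNB1 and BANF1, and LMNB2 and LEMD3, changed places. Among the start regions of protein-coding genes, EMD stood at percentile 89.8 by mean DMSO signal, LMNB2 at 48.5, LMNA at 22.3 and LBR at 16.6. The LMNA value is that of the region at its first RefSeq start, which also holds the start of MEX3A. A region further inside LMNA, described below, was stronger.

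**Figure D1:**
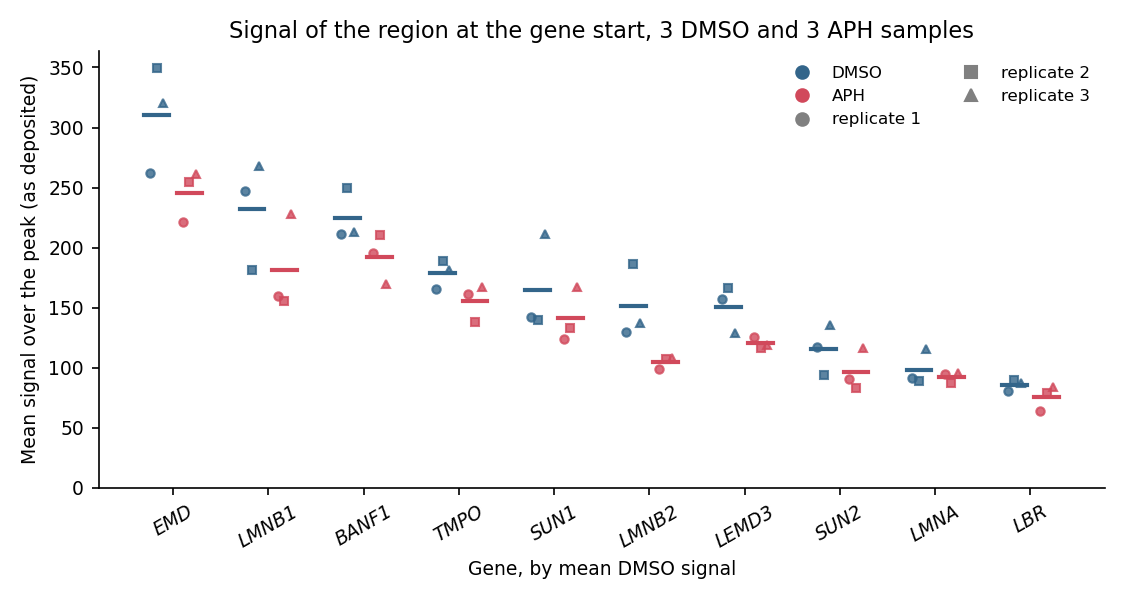
Signal as deposited (y axis, mean coverage over the peak) of the region at the start of each of the 10 genes (x axis, by mean DMSO signal) in 3 DMSO and 3 APH samples; each symbol is a sample and each bar a group mean. EMD has the highest mean in DMSO (311) and LBR the lowest (85.5), and the groups do not overlap for EMD, BANF1, LMNB2 and LEMD3.

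LMNA, the gene of lamins A and C, had 8 regions, each with a peak in all 6 samples, numbered here from the 5′ end. Among 3232 protein-coding genes of 40 to 80 kb, with a median of 2 shared regions, 12 had at least as many as LMNA, itself included. The signal was not greatest at the first start. Region 1, at chr1:156082304-156083573, covers that start and the second RefSeq start, and it also holds the start of MEX3A, which is read in the opposite direction, so that its signal cannot be assigned to one gene.

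The strongest region of the locus was region 5, at chr1:156114070-156115551, which lies 31.5 to 33.0 kb inside the gene. Its signal was 163, 197 and 186 in DMSO and 171, 184 and 195 in APH. The groups overlapped throughout, and its mean of 182 ± 17.5 in DMSO stood at percentile 61.4 of protein-coding start regions, beside 22.3 for region 1. Region 1 had 91.5, 88.4 and 115 in DMSO and 94.3, 87.0 and 95.5 in APH. DMSO sample 3 alone lay above the other 5 samples there, and all values of region 5 lay above all values of region 1.

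Other starts of LMNA were placed along the gene by their distance from the first. The third RefSeq start lies 24143 bp from it, just past the end of region 4 at chr1:156106192-156106684. In a GENCODE annotation of build GRCh37, from which distances and no coordinates were taken, the MANE Select transcript, the agreed reference transcript of the gene, starts at 32138 bp, within the span of region 5. The distances of the RefSeq starts, and that of the next gene SEMA4A at 67371 bp, were the same in both builds. Of 14 coding transcripts in that annotation, 4 start within region 5, 1 within region 1 and the rest outside all 8 regions.

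Regions 2, 3, 4 and 6 lay between and beside these starts. Region 3, at chr1:156096553-156097012 which begins 13980 bp from the first start, had 129, 176 and 133 in DMSO and 128, 170 and 111 in APH, with replicate 2 the highest of both groups and the groups overlapping. Region 4 had 106, 131 and 143 in DMSO and 98.2, 116 and 118 in APH. Here too the groups overlapped, through DMSO sample 1. Regions 2 (chr1:156090643-156091106) and 6 (chr1:156115801-156116223) had DMSO means of 79.6 ± 18.6 and 103 ± 5.14 and APH means of 73.8 ± 10.0 and 97.9 ± 10.1, and their groups overlapped.

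The regions toward the 3′ end stood apart from the rest of the gene in that their groups did not overlap. All APH values were below all DMSO values in 14.4% of all shared regions, and in 41.7% of protein-coding start regions. Region 8, at chr1:156130033-156130702, had 156, 173 and 141 in DMSO and 119, 135 and 102 in APH. All APH values were below all DMSO values, and the log2 difference was −0.40 with SE 0.15. Region 7, at chr1:156122875-156124083, had 71.9, 85.2 and 80.2 in DMSO and 60.1, 53.7 and 64.8 in APH, again without overlap and with a log2 difference of −0.41 (SE 0.19). Neither passed the test over all shared regions, with adjusted p = 0.309 for region 8 and 0.383 for region 7 in limma with Benjamini-Hochberg adjustment. The difference between these regions and the others of LMNA was not tested. Region 5 had a log2 difference of 0.01 with a 95% interval from −0.27 to 0.30, and region 1 one of −0.08 with an interval from −0.43 to 0.26, whose sign turned, to 0.024 under quantile normalization and to 0.035 without DMSO sample 3.

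**Figure D2:**
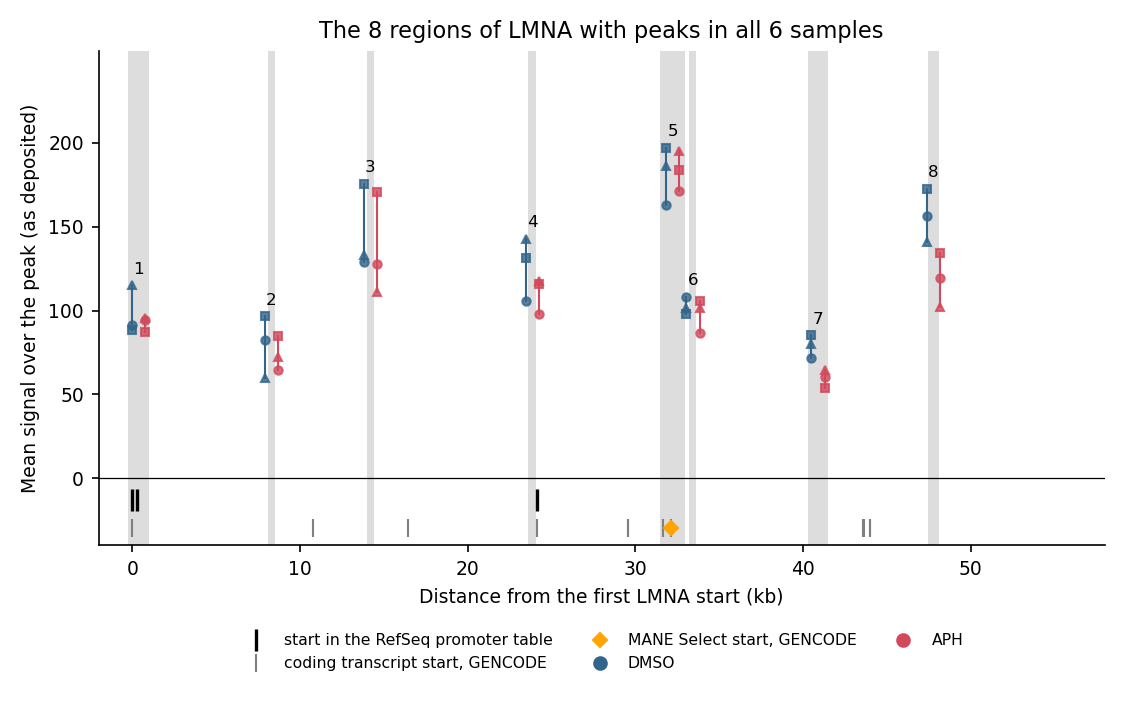
Signal as deposited (y axis) of the 8 LMNA regions against distance from the first LMNA start in kb (x axis); grey bands are the regions at their width, symbols the 3 DMSO and 3 APH samples (circle, square and triangle for replicates 1, 2 and 3) and lines their ranges, drawn beside the centre of each region. Marks under the axis are transcript starts. The highest region, 5, holds the MANE Select start, and the groups do not overlap in regions 7 and 8.

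Taken per sample, LMNA had 10, 12 and 9 peaks in DMSO and 11, 9 and 9 in APH, since a region can hold several peaks. The counts of the groups overlapped, with means of 10.3 ± 1.53 and 9.67 ± 1.15, and a two-sided exact permutation test gave p = 0.7. The mean signal of the LMNA peaks was 104, 115 and 122 in DMSO and 97.7, 113 and 104 in APH. It was lower on average in APH, by less than the samples differed, and the exact permutation test gave p = 0.3. Divided by the average signal of the sample's list, it was instead higher on average in APH, at 1.47 ± 0.07 against 1.38 ± 0.08, with p = 0.2 in the exact permutation test. With 3 samples against 3 this test cannot go below 0.1. The average used as divisor is over lists of unequal length and was lower in every APH sample. Over the shared regions alone, the median signal was 64.8, 77.4 and 64.3 in DMSO and 67.4, 73.4 and 61.5 in APH. Division by that median was not tested.

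The B-type lamins differed from each other in how their regions lay. The start region of LMNB2, at chr19:2456696-2457335, had the largest log2 difference of the 26 shared regions with all 6 samples in the fit. The LMNB1 start was first instead without DMSO sample 2, at −0.53 with LMNB2 sixth at −0.35, and without APH sample 3, with LMNB2 second at −0.53, and LMNA region 7 was first after quantile normalization, at −0.39 with LMNB2 second at −0.36. The LMNB2 values were 130, 187 and 137 in DMSO and 99.1, 107 and 108 in APH. No APH value reached the lowest DMSO value, and DMSO sample 2 lay far above the others of its group. The log2 difference was −0.51 with SE 0.16, and limma with Benjamini-Hochberg adjustment gave adjusted p = 0.290. With the replicate number as a block, the adjusted p was 0.0057 in the same test. Whether these numbers pair the samples is undecided. Of protein-coding start regions, 4.45% had a more negative difference.

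The other LMNB2 region, at chr19:2427386-2428112, lies at the 3′ side of the gene and holds the start of TIMM13, a mitochondrial import gene, so that it cannot be assigned to LMNB2. It had 184, 180 and 176 in DMSO and 130, 141 and 141 in APH. The replicates lay close together in both groups and the groups did not overlap. The log2 difference was −0.39 (SE 0.13), with adjusted p = 0.295 in limma with Benjamini-Hochberg adjustment.

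LMNB1 had 4 regions, of which 2 were shared. The start region, at chr5:126776505-126777261 and next to the start of the divergent transcript LMNB1-DT, had 247, 181 and 268 in DMSO and 160, 156 and 228 in APH. Replicate 3 was the highest of both groups, and APH sample 3 lay within the DMSO range. A stronger region, at chr5:126778133-126778772, lies 1.5 to 2.1 kb inside the gene, with a mean of 310 ± 34.5 in DMSO and 261 ± 11.7 in APH. The log2 differences were −0.36 (SE 0.17) at the start and −0.24 (SE 0.13) at the inner region, with adjusted p = 0.412 and 0.468 in limma with Benjamini-Hochberg adjustment, and that of the start was −0.16 after quantile normalization. With the replicate number as a block, the adjusted p of the start was 0.019 in the same test.

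LBR, which binds B-type lamins and heterochromatin and is also a sterol reductase, had the weakest start region. That region, at chr1:225427456-225428892, had 80.1, 89.7 and 86.8 in DMSO and 63.5, 78.5 and 83.9 in APH. It extended 71 bp before the start and 1365 bp into the gene, so that the printed stretch, of low G and C content, lay outside it. The next region, at chr1:225426783-225427298, was 1 of the 3 shared regions whose mean log2 value was higher in APH, with a log2 difference of 0.13 (SE 0.19). The groups overlapped in both regions.

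Among the LEM domain genes, EMD encodes emerin, whose loss causes a form of muscular dystrophy. Its single region, at chrX:154378520-154379511, had 262, 350 and 321 in DMSO and 221, 254 and 261 in APH. The highest APH value lay just below the lowest DMSO value. The log2 difference was −0.33 with SE 0.14 (adjusted p = 0.356, limma with Benjamini-Hochberg adjustment). It was −0.09 after quantile normalization. With the replicate number as a block the adjusted p was 0.017 in the same test.

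LEMD3 encodes MAN1, an inner membrane protein that binds SMAD proteins. Its start region, at chr12:65169317-65169828, had 157, 166 and 129 in DMSO and 126, 116 and 119 in APH. The groups were apart by a narrow gap between DMSO sample 3 and APH sample 1, and the region also holds the start of an annotated long non-coding RNA. The log2 difference was −0.32 with SE 0.14 (adjusted p = 0.384, limma with Benjamini-Hochberg adjustment). It was −0.16 after quantile normalization. Of the fits without a single sample, only that without DMSO sample 3 gave it an unadjusted p under 0.05. With the replicate number as a block the adjusted p was 0.049 in limma. The region next to the start region, at chr12:65170031-65170857, starts 448 bp inside the gene and had 115, 109 and 132 in DMSO and 113, 123 and 130 in APH. Its groups overlapped fully, with a log2 difference of 0.04 (SE 0.15). The difference between these neighbours was not tested.

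TMPO encodes the lamina-associated polypeptide 2 family. Its start region, at chr12:98515210-98516060, had 166, 189 and 181 in DMSO and 161, 138 and 167 in APH, and the groups overlapped by a single sample. At TMPO it was the region after it, at chr12:98516248-98516667, whose groups were apart, with 109, 122 and 134 in DMSO and 96.0, 91.0 and 92.3 in APH. The log2 differences were −0.20 (SE 0.14) and −0.38 (SE 0.15), with adjusted p = 0.568 and 0.332 in limma with Benjamini-Hochberg adjustment, and that of the start was −0.12 without APH sample 2 and −0.01 after quantile normalization. BANF1, the small DNA-binding protein that bridges LEM domains to chromatin, had a single region at chr11:66001925-66003002 that also holds the start of EIF1AD. It had 211, 250 and 213 in DMSO and 195, 211 and 170 in APH. APH sample 2 lay just under the lowest DMSO sample, and the log2 difference was −0.23 (SE 0.14), with adjusted p = 0.515 in limma with Benjamini-Hochberg adjustment. It was −0.15 without DMSO sample 2, −0.14 without APH sample 3 and −0.02 after quantile normalization.

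SUN1 had 6 regions and SUN2 had 3, of which 3 and 2 were shared by all 6 samples. The region nearest the RefSeq start of SUN1, at chr7:816355-816766, begins 798 bp inside the gene and had 142, 140 and 211 in DMSO and 124, 133 and 167 in APH. Replicate 3 was the highest of both groups and the groups overlapped. A region near the 3′ end, at chr7:873346-873728, had 144, 151 and 127 in DMSO and 108, 117 and 116 in APH, without overlap, and its log2 difference was −0.31 with SE 0.14 (adjusted p = 0.387, limma with Benjamini-Hochberg adjustment). SUN1 also had 3 of the 8 regions that were not shared by all samples, of which 1 had a peak in every APH sample and in DMSO sample 2 only. The start region of SUN2, at chr22:38755045-38756406, had 117, 94.1 and 135 in DMSO and 90.6, 83.2 and 116 in APH. Both groups ran in the same order of replicates and overlapped. No region of the 10 genes had peaks in all samples of one condition and in none of the other, and the 8 regions not shared by all samples had values from 20.6 to 113.

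Over the 26 shared regions of the 10 genes, 0 passed an adjusted p of 0.05 in limma, as did 0 (0%) of all 50150 shared regions. At an unadjusted p under 0.05, 8 of the 26 were lower in APH, where 10.1% of all shared regions were, and 0 were higher, where 2.46% were. All APH values were below all DMSO values in 9 of the 26 and in 14.4% of all shared regions, and above them in 0 of the 26 and in 4.21% of all. The median log2 difference was −0.21 for the 26 regions and −0.06 for all shared regions. The sign of the latter turned without single replicates. It was 0.035 without DMSO sample 2, 0.014 without APH sample 3 and −0.124 without APH sample 2. The median of the 26 regions was −0.17, −0.26 and −0.23 in the same fits. The direction over all shared regions moved with the scaling: 5062 were lower and 1235 higher at an unadjusted p under 0.05 as deposited, 4925 and 3091 once samples were centred on their medians, and 2306 and 2963 after quantile normalization. Under the last, 3 of the 26 regions were lower at an unadjusted p under 0.05, beside 4.60% of all shared regions. The count of 8 was 4 without APH sample 1 and 4 without APH sample 2, beside 4.12% and 8.80% of all shared regions, and 5 without DMSO sample 3, beside 6.48%. The 1235 regions higher among all shared regions became 3828 without DMSO sample 2, 2863 without APH sample 3 and 420 without APH sample 2. With the replicate number as a block, 7 of the 26 regions passed an adjusted p of 0.05 in limma, as did 6604 of all shared regions.

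The start regions give a closer background, since 34.3% of the 9626 start regions of protein-coding genes were lower in APH at an unadjusted p under 0.05 and 0.364% were higher. Of the 10 start regions of the lamina and envelope genes, 3 were lower (LMNB2, EMD and LEMD3) and 0 were higher. All APH values were below all DMSO values in 4 of the 10, with BANF1 as the other one, and in 41.7% of protein-coding start regions. The median log2 difference was −0.24 for the 10 and −0.27 for protein-coding start regions. At their starts the 10 genes thus had about the share and the size of difference that start regions had in general. After quantile normalization 8.67% of protein-coding start regions were lower and 1.69% higher, the medians were −0.11 for the 10 and −0.11 for all, and of the 10 only LMNB2 was lower, with EMD at −0.09 and LEMD3 at −0.16. The share of 34.3% was 14.1% without APH sample 1 and 18.7% without DMSO sample 3. The share of 0.364% was 0.0935% without DMSO sample 1 and 0.841% without DMSO sample 2. LMNB2 was lower at an unadjusted p under 0.05 without any one of the 6 samples. EMD was not without DMSO sample 2 or 3 or APH sample 1, and LEMD3 was so only without DMSO sample 3. LMNB1 and SUN2 were lower as well without DMSO sample 2 and without APH sample 3, and the count of 3 ran from 1, without APH sample 1, to 4, without APH sample 3. With the replicate number as a block it was 6, beside 60.5% of protein-coding start regions.

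Outside the start regions, 5 of 16 shared regions were lower at an unadjusted p under 0.05, with a median of −0.18. Of the 5, 1 is the LMNB2 region that holds the TIMM13 start. Of the other 15, the regions LMNA 7 and 8, SUN1 6 and TMPO 2 were lower, or 26.7%, with a median of −0.16. Over 40524 shared regions that are the start region of no protein-coding gene, 4.34% were lower and the median was −0.01. Weighted to the levels of signal of the 15, that share was 7.60%. The count of 4 was 1 without APH sample 2, beside 4.61% of the 40524 regions, 3 without DMSO sample 1, beside 4.23%, and 2 without DMSO sample 2, DMSO sample 3, APH sample 1 or APH sample 3, beside 3.48%, 3.58%, 1.76% and 3.82%. It was also 2 after quantile normalization, beside 3.63% and with a median of −0.05, and 2 with the highest peak of each region as its value, beside 3.97%. The sign of the median of the 40524 regions also turned. It was 0.099 without DMSO sample 2, 0.081 without APH sample 3 and 0.024 after quantile normalization, and −0.083 without APH sample 2. The median of the 15 regions ran from −0.28, without DMSO sample 1, to −0.10, without DMSO sample 2 or APH sample 3. The excess over the background was not tested, and the 15 regions are not all far from a start. TMPO 2 begins 675 bp and LEMD3 2 begins 448 bp inside the gene, and LMNA 5 holds the MANE Select start.

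**Figure D3:**
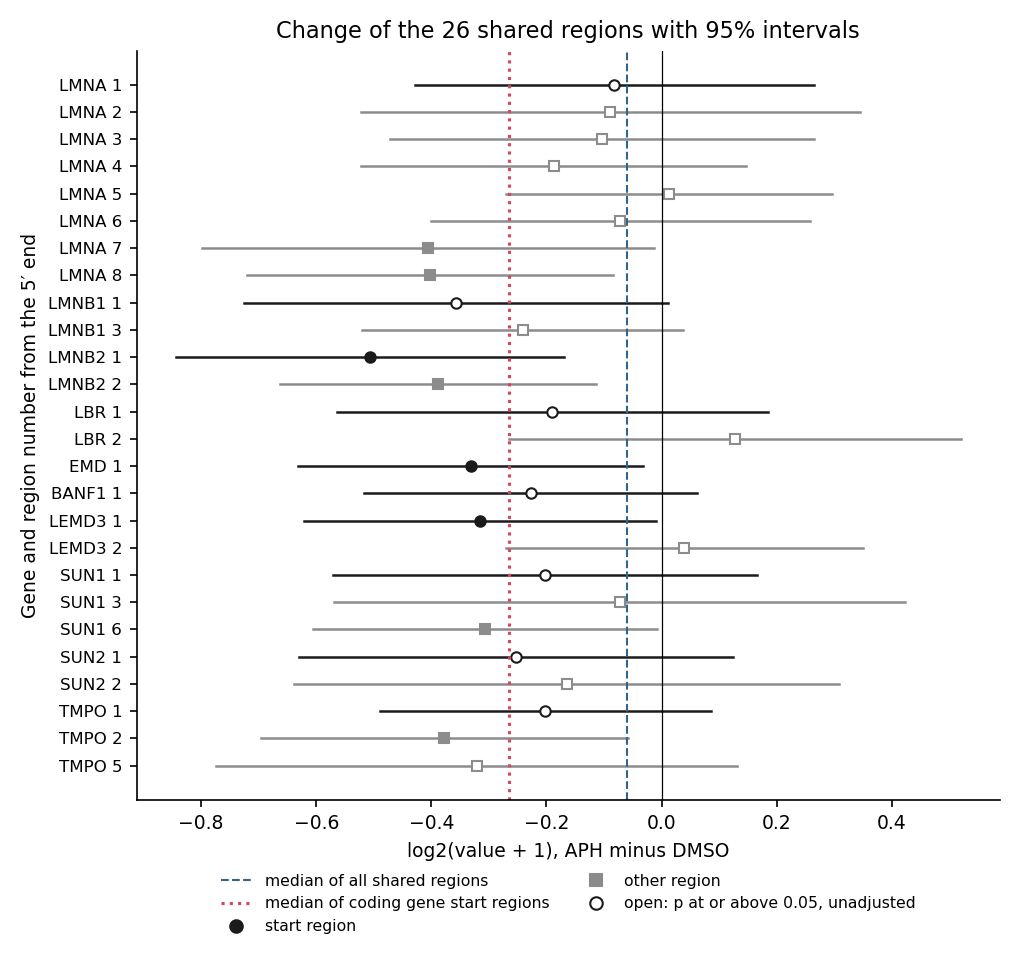
Log2 difference, APH minus DMSO, of log2(value + 1) (x axis) for the 26 shared regions (y axis, gene and region number from the 5′ end) with 95% intervals from limma; round symbols are start regions, and filled symbols mark an unadjusted p under 0.05. Dashed and dotted lines are the medians of all shared regions (−0.06) and of protein-coding start regions (−0.27), and 23 of the 26 points lie below 0.

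The difference between conditions also followed the level of a region. When all shared regions were split into 10 parts of equal number by mean signal, the median log2 difference was 0.08 in the lowest part and −0.24 in the highest. The share lower at an unadjusted p under 0.05 was 0.778% and 34.6% in the same parts. Of the 26 regions of the lamina and envelope genes, 22 lay in the upper 5 parts, and 18 of the 26 had a difference below the median of their own part. The quartiles of their own part left 11 of the 26 below, among them LMNB2 at the start and LMNA in regions 7 and 8, and 2 above, LMNA in region 5 and LEMD3 in its second region.

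**Figure D4:**
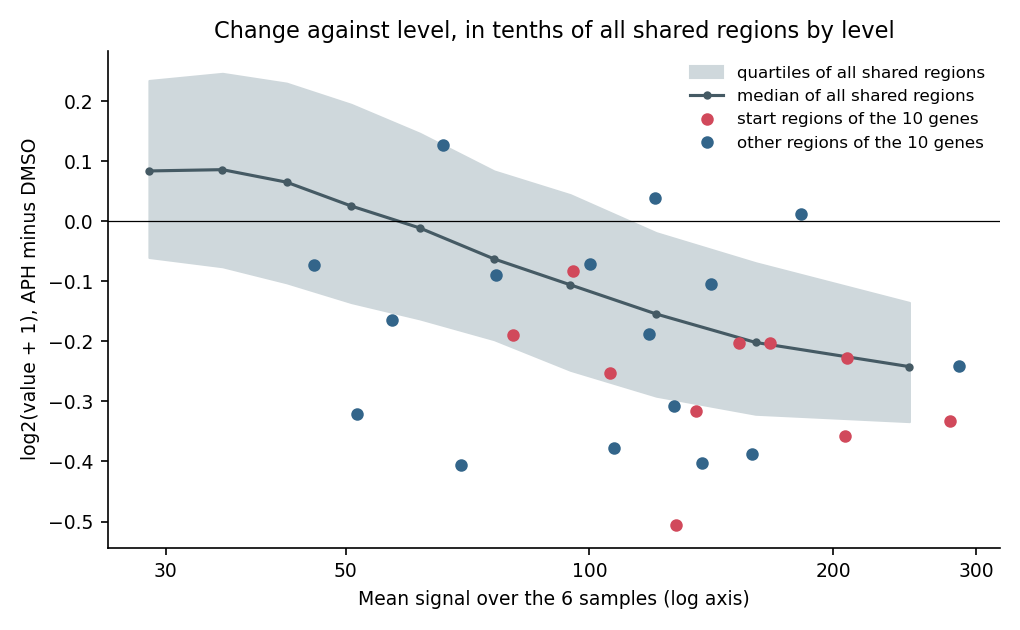
Log2 difference, APH minus DMSO (y axis), against mean signal over the 6 samples (x axis, log scale). The line joins the medians and the band spans the quartiles of 10 parts of equal number of all 50150 shared regions, from 0.08 in the lowest part to −0.24 in the highest; points are the 26 regions of the 10 genes.

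Other genes of the envelope were examined at their starts for context. Of 55 such genes, 49 had a start region in all 6 samples. At an unadjusted p under 0.05, 23 of the 49 were lower in APH, where 34.3% of protein-coding start regions were, and 0 were higher, and 0 passed an adjusted p of 0.05 in limma. The median log2 difference was −0.31, beside −0.27 for protein-coding start regions. The share of 34.3% was 14.1% without APH sample 1 and 8.67% after quantile normalization, and the 23 was not recomputed in those fits. By DMSO signal these genes had a median percentile of 68.3 among protein-coding start regions. By class, 4 of 5 lamin processing genes, 4 of 10 inner membrane and LEM domain genes, 0 of 1 LINC complex gene, 4 of 6 genes of mitotic regulation and 11 of 27 nuclear pore genes were lower.

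No region was found at the start of the nesprin genes SYNE1 and SYNE2, which encode the outer membrane partners of the SUN proteins, of CHMP7, which recruits membrane remodelling proteins to the reforming envelope, or of the pore gene NUP35. IST1 had a start region in 5 samples and SYNE3 in 4. The strongest start regions in DMSO were those of NUP98, a mobile nucleoporin (498), CHMP4B, a subunit of the membrane remodelling polymer (445), and NUP214, of the cytoplasmic face of the pore (388). The weakest were those of SYNE3, with 29.2 in the only DMSO sample that had a peak, NUP210, a membrane nucleoporin (69.9), and ICMT, which methylates the processed end of prelamin A and B-type lamins (72.1).

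**Figure D5:**
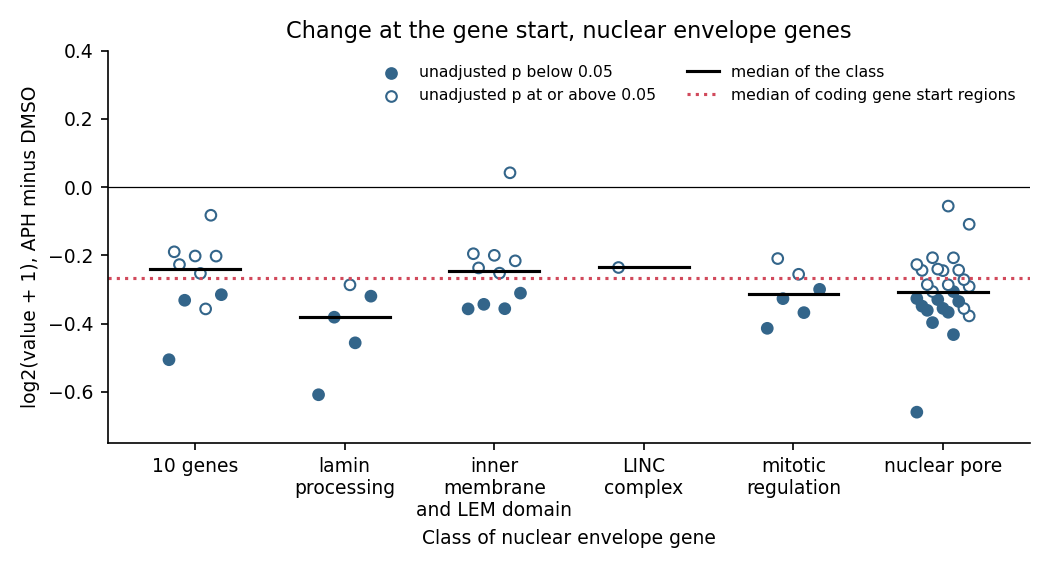
Log2 difference at the gene start, APH minus DMSO (y axis), for the 10 genes and for the other envelope genes by class (x axis); each point is a gene, filled where its unadjusted p was under 0.05, and bars are class medians. The dotted line is the median of protein-coding start regions (−0.27), and the class medians lie from −0.38 for lamin processing to −0.23 for the LINC complex, which has a single gene.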

How the data were processed

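The authors aligned the reads of each sample with BWA 0.7.12 to hg38, kept unique pairs without duplicates, called peaks per sample with MACS2 2.1.0 and deposited for each peak a signal, coverage averaged over its 32-nt bins. No shift of the reads to the Tn5 cutting site is named in the sources used here. Signal multiplied by the number of bins was whole, within the rounding of the decimals, for 99.995% to 100% of the peaks tested in each sample (lengths and values below 1000), so they were not multiplied by a factor for library size. Reads drawn down to equal depth would look the same. Depth is unknown and no counting interval can be given.

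Peaks overlapping by at least 1 bp were merged, and a region's value is the length-weighted mean of its peaks. Regions shared by all 6 samples were compared on log2(value + 1), which slightly understates changes of low values, with limma 3.58.1 (R 4.3.3, intensity trend) and Benjamini-Hochberg adjustment over all of them. The fit was tested on simulated data with known differences. For a single value per sample, an exact permutation test (two-sided) was used. The p-values measure the spread between these samples, which the methods call biological replicates. A start region holds the gene start or lies nearest to it within 1 kb. Genes and promoters are from RefSeq, GRCh38.p14, and the strand of genes without a promoter entry is from GENCODE, by symbol.

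The 10 genes and the lists of other genes and markers were chosen with earlier results of these data known, and 1 marker of the list is not reported here. Of the other envelope genes, those with no start region, the 3 highest and 3 lowest by DMSO mean and any past adjusted p were named. Regions other than start regions were named when shared and of LMNA, highest of their gene or under an unadjusted p of 0.05. Alternatives covered the pseudocount, scaling, blocking, filters, flanks, merging and each replicate left out.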

Additional observations from a re-analysis of the deposited data

How the results depend on the processing

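The count of 8 regions lower in APH at an unadjusted p under 0.05 was 3 after quantile normalization, and the median log2 difference was then −0.11 in place of −0.21. Without single replicates the count ran from 4 (without APH sample 1 or 2) to 7, with 5 without DMSO sample 3, while the share of all shared regions ran from 4.12% (without APH sample 1) to 10.0%, and the median from −0.28 to −0.17. Of the 26, the number higher in APH and the number past an adjusted p of 0.05 were 0 in each of these fits. The cause was not tested. Under pseudocount 5, centring, a filter on weak regions, the highest peak, a 5 kb flank or merging at 100 bp the count was within 1.5 times of the main one.

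Whether the replicate numbers pair the samples is undecided: same-numbered samples had correlations of −0.01, 0.48 and 0.52 of their deviations, for replicates 1 to 3, and APH samples 2 and 3 correlated best with their own number but APH sample 1 with DMSO sample 2 (0.26). With the replicate number as a block, 12 of the 26 regions were lower at an unadjusted p under 0.05, beside 21.1% of all shared regions, and 7 of the 26 passed an adjusted p of 0.05 in limma, as did 6604 of all 50150. Among the start regions, those of LMNB1, LMNB2, EMD and LEMD3 passed. The paired exact test cannot go below 0.25 and gave p = 1 for the number of LMNA peaks and p = 0.25 for their signal.

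The LMNA start region changed sign to 0.024 after quantile normalization and ran from −0.15 to 0.035 without single replicates, above 0 without DMSO sample 3. The other 9 start regions kept their sign in all settings run for them, but not their size. The 5 kb flank and the merging at 100 bp were not run for single start regions. After quantile normalization they stood at −0.01 for TMPO, −0.02 for BANF1, −0.03 for SUN1, −0.09 for EMD, −0.14 for LBR and SUN2, −0.16 for LMNB1 and LEMD3 and −0.36 for LMNB2. SUN1 was −0.01 without DMSO sample 3 and LBR −0.07 without APH sample 1. With the highest peak of each region as its value, the differences grew to −0.18 for LMNA, −0.29 for LBR and −0.32 for BANF1. That of SUN2 shrank to −0.19. The median of the start regions of the lamina and envelope genes was then −0.30, beside −0.26 for protein-coding start regions. The difference in LMNA peaks per sample, −0.67, ran from −1.33 to 0.17 and was reversed without DMSO sample 2. The difference in their mean signal, −8.63, ran from −13.4 to −4.48 and became 0.092 when divided by the sample mean over all peaks.

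Depth is unknown, and a region counted as shared must pass the peak caller in each sample, so weak regions of the 10 genes are missing from the comparison. Peak signal is a measure of accessibility and says nothing of transcript or protein. Regions that hold the starts of neighbouring genes cannot be assigned to one gene.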

Other observations

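Chosen after their values were seen, RCE1, which cleaves the processed end of prelamin A and B-type lamins, and NUP50, a mobile nucleoporin, had the most negative log2 differences of the 49 other envelope start regions. RCE1 had 117, 114 and 127 in DMSO and 80.8, 64.2 and 91.3 in APH. NUP50 had 94.9, 105 and 127 in DMSO and 64.8, 66.2 and 73.5 in APH. In both genes all APH values lay below all DMSO values. The log2 differences were −0.61 (SE 0.17) and −0.66 (SE 0.17), with adjusted p = 0.290 and 0.290 in limma with Benjamini-Hochberg adjustment. TMEM43, an inner membrane protein that binds emerin, was the only 1 of the 49 with a mean log2 value higher in APH, at 0.04 (SE 0.14).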
